A study of Homo sapiens with 18 samples.

Results

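The 7 mRNAs described here are the complex I mRNAs of the mitochondrial genome: MT-ND1, MT-ND2, MT-ND3, MT-ND4, MT-ND4L, MT-ND5 and MT-ND6. They were chosen by symbol, all 7 are in the deposited table, and the table holds 8996 genes. HEK293T, a human embryonic kidney cell line of wild-type genotype, was treated with the solvent DMSO or with STM2457, a compound that blocks METTL3, the methyltransferase behind most N6-methyladenosine (m6A) in nuclear-encoded mRNA. After 3 h of treatment the cells received 100 µM 4-thiouridine (s4U) for 90 or 180 min, or none, which gave 6 groups of 3 samples, 9 samples per treatment and 18 in all. The nucleoside enters newly made RNA, and SLAM-seq reads it as T-to-C conversions after alkylation. All groups are of the same line and differ in treatment and labelling time. The protocol also mentions a sample with lower input, and the labels do not show which library it is. For each treatment the table holds 1 fitted half-life and 1 fitted synthesis rate of a gene, and nothing for a single sample. No spread between replicates can therefore be given, no test was possible, the depth behind each value is unknown, and each difference below is a difference between 2 fitted numbers. Half-lives are written in hours, a unit inferred from the values because the table names none. As a check of the label, NEFM, NEFL, INA and HOXA10, genes that HEK293T is known to express, were in the table, and 0 of 8 markers of other cell types were.

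Complex I is the entry point of electrons from NADH into the respiratory chain, and the mitochondrial genome encodes the hydrophobic core of its proton-pumping membrane arm. Human mitochondrial DNA is copied by the RNA polymerase POLRMT into long polycistronic transcripts from both strands, and transfer RNAs between the frames are cut out to free the mRNAs. Most of these mRNAs then receive short poly(A) tails from MTPAP, and LRPPRC with SLIRP protects them from decay by the PNPT1 and SUPV3L1 degradosome. METTL3 acts mainly in the nucleus, so mitochondrial mRNAs are usually regarded as lying outside its reach.

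The ends of the 7 annotated frames show how each one stops and, for MT-ND4L, that it ends inside a longer mRNA. The lines below give the last 30 bases of each frame, 5′ to 3′ on the strand of the RNA, from the GENCODE release 29 transcripts (GRCh38), with the bases that form or begin the stop codon in capitals.
MT-ND1: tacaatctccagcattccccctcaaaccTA
MT-ND2: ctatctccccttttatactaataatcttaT
MT-ND3: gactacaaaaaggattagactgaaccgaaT
MT-ND4: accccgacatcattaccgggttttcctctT
MT-ND4L: gtacataacctaaacctactccaatgcTAA
MT-ND5: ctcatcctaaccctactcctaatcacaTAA
MT-ND6: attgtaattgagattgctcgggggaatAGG

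In MT-ND1, MT-ND2, MT-ND3 and MT-ND4 the encoded frame stopped short of a whole stop codon, which the poly(A) tail is known to complete. MT-ND4L and MT-ND5 carried a whole TAA. MT-ND6 ended in AGG, and it is the only one of the 7 encoded on the other strand. It is also known to lack the poly(A) tail that the others carry, and the libraries start from poly(A). The sources used here do not give the strand setting of the counting.

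On chromosome M of GRCh38, and by GENCODE 29, MT-ND1 occupies 3307 to 4262 and MT-ND2 4470 to 5511 on the plus strand. MT-ND3 lies at 10059 to 10404, MT-ND4L at 10470 to 10766, MT-ND4 at 10760 to 12137 and MT-ND5 at 12337 to 14148, also on the plus strand. MT-ND6 lies at 14149 to 14673 on the minus strand, so that the 3′ end of its annotated frame abuts that of MT-ND5. These genes have no introns, and each span is that of the annotated gene, which covers the coding frame. The identifiers and lengths in the table (ENSG00000198888.2 for MT-ND1 to ENSG00000198695.2 for MT-ND6) were equal to those of GENCODE 29 for all 7.

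MT-ND4L and MT-ND4 are read from 1 bicistronic mRNA, and their frames overlap by 7 bases, at 10760 to 10766. The lines below show the end of MT-ND4L and the start of MT-ND4 with the shared bases in capitals: the start codon of MT-ND4 lies inside the end of MT-ND4L.
MT-ND4L end: gtacataacctaaacctactccaATGCTAA
MT-ND4 start: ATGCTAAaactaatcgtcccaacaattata

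In DMSO the 7 mRNAs turned over within hours, with a median half-life of 4.14 h against 5.61 h over all genes. MT-ND1, a subunit at the junction of the membrane arm and the ubiquinone site, had the shortest half-life of the 7, at 2.70 h under DMSO, and 4.14 h under STM2457. MT-ND2, the proton-pumping subunit nearest to it in the membrane arm, had 3.34 and 3.16 h. MT-ND3, which carries a flexible loop at the ubiquinone site, had 3.50 and 4.43 h. These 3 were the shortest-lived of the 7 in both treatments, with MT-ND1 lowest in DMSO and MT-ND2 lowest in STM2457.

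MT-ND4, another antiporter-like proton-pumping subunit, had fitted half-lives of 4.28 h (DMSO) and 5.63 h (STM2457). MT-ND5, the pumping subunit at the far end of the membrane arm, had 4.14 and 6.07 h. MT-ND4L, a small subunit packed beside MT-ND6 and MT-ND2, had 6.09 and 5.71 h. MT-ND6, a core membrane subunit, stood apart in DMSO with 10.3 h and had 5.96 h in STM2457.

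Sorted by half-life in DMSO, the order was MT-ND1, MT-ND2, MT-ND3, MT-ND5, MT-ND4, MT-ND4L and MT-ND6. In STM2457 it was MT-ND2, MT-ND1, MT-ND3, MT-ND4, MT-ND4L, MT-ND6 and MT-ND5. Whether neighbours in either order differ beyond replicate error cannot be said from single fitted values. The span from the shortest to the longest was 3.83-fold in DMSO, or 2.26-fold without MT-ND6, and 1.92-fold in STM2457. Placed among all 8996 genes in DMSO, MT-ND1 was longer-lived than 21.3% of them, MT-ND4L than 53.5% and MT-ND6 than 74.7%; in STM2457 the 7 lay between 25.5% (MT-ND2) and 55.4% (MT-ND5).

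**Figure D1:**
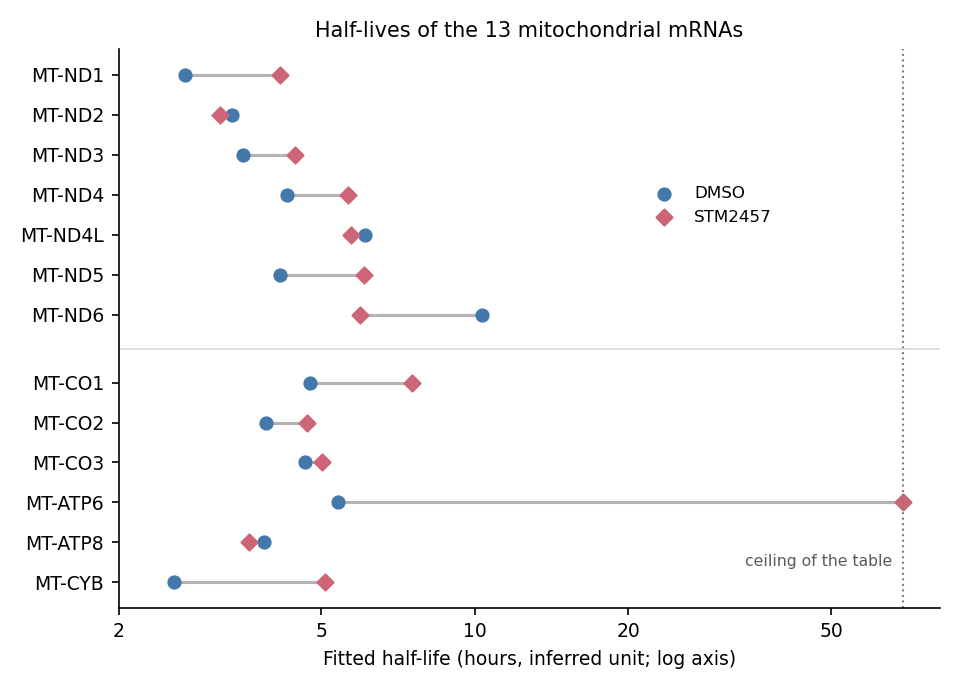
Fitted half-life in DMSO (blue circles) and STM2457 (red diamonds) for the 7 complex I mRNAs above the grey line and the other 6 mitochondrial mRNAs below it, on a log axis in hours (inferred unit), with 1 fitted value per point and no error available. MT-ND6 has the longest DMSO half-life of the 13 (10.3 h) and the largest move to a shorter one (5.96 h), and MT-ATP6 reaches the ceiling of the table in STM2457.

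A gene was called longer-lived or shorter-lived where its half-life in STM2457 differed from that in DMSO by more than 1.5-fold, a rule of size and not a test. Of the 7, 1 was longer-lived, 1 was shorter-lived and 5 lay within 1.5-fold, while 28.5% of the whole table was longer-lived and 24.9% was shorter-lived. These counts are close to the background. MT-ND1 was the longer-lived one, 1.54-fold (log2 ratio 0.62). MT-ND6 was the shorter-lived one, 1.73-fold (log2 ratio -0.79). MT-ND5 lay just inside the rule at 1.47-fold (log2 ratio 0.55).

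MT-ND4 and MT-ND3 had half-lives 1.32-fold and 1.26-fold as long in STM2457 (log2 ratios 0.40 and 0.34). MT-ND2 and MT-ND4L had log2 ratios of -0.078 and -0.092. The median log2 ratio over the 7 was 0.34, against -0.0052 over all genes and 0.47 over the other 6 mitochondrial mRNAs. A 2-fold rule called none of the 7 in either direction, and the share of all genes past 2-fold was not computed.

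If the abundance of an mRNA is constant, its half-life can also be read as the share made since the label was added. That share is the quantity that labelled reads carry. By the fitted half-lives, 180 min of label in DMSO leaves 53.7% new MT-ND1 RNA, 46.3% new MT-ND2, 44.8% new MT-ND3 and 18.2% new MT-ND6. In STM2457 the same shares are 39.5%, 48.2%, 37.5% and 29.4%. For MT-ND4, MT-ND4L and MT-ND5 the shares were 38.5%, 28.9% and 39.5% in DMSO and 30.9%, 30.5% and 29.0% in STM2457. On that reading the gap between MT-ND1 and MT-ND6, the ends of the order in DMSO, was narrower in STM2457. There MT-ND2 held the highest share and MT-ND5 the lowest. By the fits, abundance would still have been moving in STM2457 at lysis (see the 6 h values below), so the shares at lysis can differ from these.

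Synthesis rates of the 7 were far higher than those of most nuclear genes and spread widely among the members. Divided by the gene length in the table, the DMSO rate was 80389 per 1000 bases for MT-ND3, 23629 for MT-ND2, 15631 for MT-ND4 and 7640 for MT-ND1. It was 3752 for MT-ND4L, 1783 for MT-ND5 and 676 for MT-ND6, and the median over all genes was 22.2. The table gives no unit for these rates. On this per-length scale MT-ND3 had rank 1 of 8996 genes and MT-ND6 rank 40 in DMSO, and in STM2457 these ranks were 1 and 35. On the deposited scale MT-ND3 had rank 2 in both treatments, and MT-ND6 had rank 813 in DMSO and 453 in STM2457. The libraries read 3′ ends, and whether the rates scale with gene length was not tested, so the place of MT-ND6 depends on the scale taken.

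As deposited, and thus not per length, the rate of MT-ND3 was 27815 in DMSO and 36145 in STM2457. MT-ND2 had 24621 and 26535, and MT-ND4 had 21539 and 25618. MT-ND1 had 7304 and 9271. Each of these 4 had a higher rate in STM2457 than in DMSO.

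MT-ND5 had a deposited rate of 3231 in DMSO and 3485 in STM2457. MT-ND4L had 1114 and 1638. MT-ND6, from the strand that yields a single mRNA, had 355 and 508. It also had the lowest rate of the 13 mitochondrial mRNAs per 1000 bases, in both treatments.

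**Figure D2:**
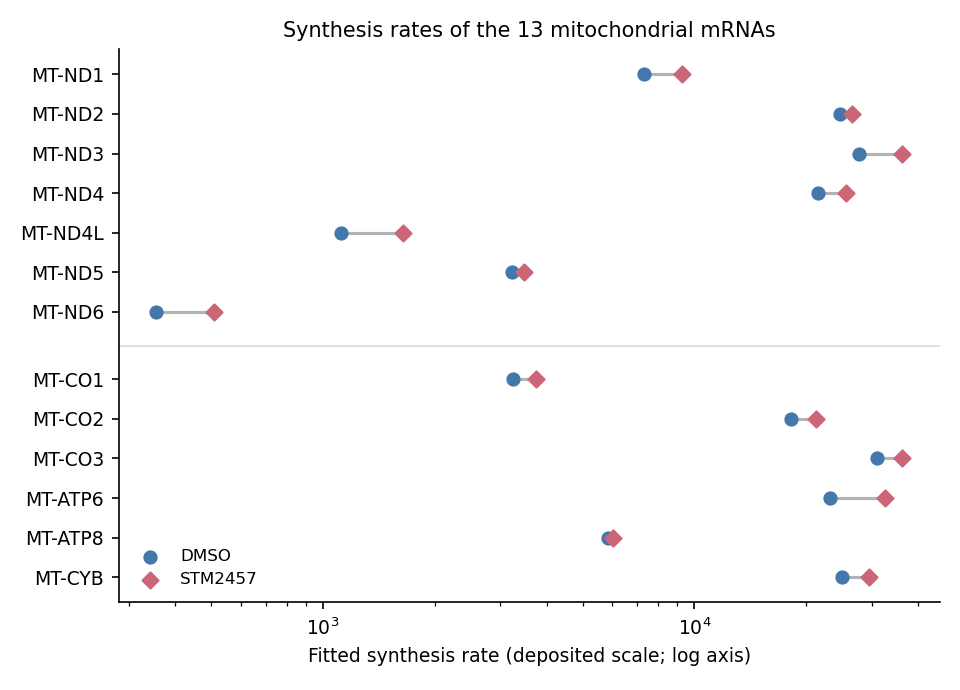
Fitted synthesis rate on the deposited scale (log axis, no unit given) in DMSO (blue circles) and STM2457 (red diamonds) for the 7 complex I mRNAs above the grey line and the other 6 mitochondrial mRNAs below it, with 1 fitted value per point. The red diamond lies to the right of the blue circle for all 13 mRNAs, and MT-ND6 is the lowest, at 355 and 508.

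None of the 7 passed 1.5-fold in synthesis in either direction, where 12.6% of all genes were higher and 13.2% lower. All 7 nonetheless had a higher rate in STM2457 than in DMSO, as did all 13 mitochondrial mRNAs, against 45.3% of all genes. The rate was above that in DMSO by 7.77% for MT-ND2, 7.86% for MT-ND5, 18.9% for MT-ND4 and 26.9% for MT-ND1. The excess was 29.9% for MT-ND3, 43.2% for MT-ND6 and 47.0% for MT-ND4L. The median log2 ratio of the 7 was 0.34, and it was 0.23 over the other 6 mitochondrial mRNAs and -0.057 over all genes.

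Mitochondrial mRNAs of 1 strand come from shared precursors, so the 7 rates are not 7 independent observations. The sources used here do not say how the rates were scaled between treatments. As a description, 797 nuclear genes had a deposited DMSO rate within the wide range of the 7, with a median of 519 against 7304 for the members, and 35.6% of them had a higher rate in STM2457 (median log2 ratio -0.10). Among 4796 nuclear genes with a DMSO half-life in the members' range the share was 37.5% (median -0.12).

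**Figure D3:**
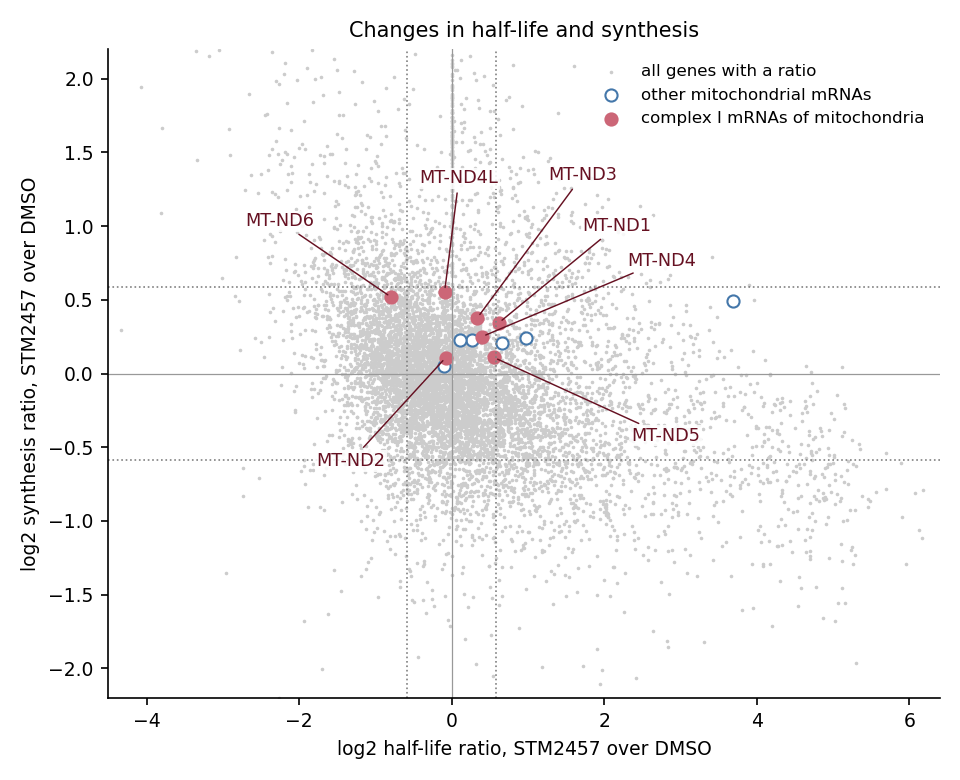
Log2 ratio of half-life (horizontal) against log2 ratio of synthesis rate (vertical), STM2457 over DMSO, for each gene with both ratios (grey), the other 6 mitochondrial mRNAs (open circles) and the 7 complex I mRNAs (red, named), with dotted lines at 1.5-fold; 45 genes lie outside the vertical range. All 7 lie above 0 on the vertical axis and inside the 1.5-fold lines on it, and only MT-ND1 and MT-ND6 lie outside those on the horizontal axis.

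Synthesis rate and half-life come from the same fit, and their product over ln 2 is the abundance that the fit implies at steady state. By this measure 4 of the 7 were more than 1.5-fold higher in STM2457 (MT-ND1, MT-ND3, MT-ND4 and MT-ND5) and 0 lower, where 28.3% of all genes were higher and 24.7% lower. The log2 ratios were 0.96 for MT-ND1, 0.72 for MT-ND3, 0.66 for MT-ND5 and 0.65 for MT-ND4. MT-ND4L had 0.46, MT-ND2 0.030 and MT-ND6 -0.27. The median of the 7 was 0.65, near the 0.68 of the other 6 mitochondrial mRNAs and above the -0.051 of all genes.

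By these fits, steady state would not have been reached within the experiment. Cells had been in STM2457 for at most 6 h when lysed, and with the fitted half-lives the 7 mRNAs would have gone 49.6% (MT-ND5) to 73.1% (MT-ND2) of the way from one level to the other. If the STM2457 rates had applied from the start, the fits give an abundance at 6 h of 1.60 times the DMSO level for MT-ND1, 1.39 for MT-ND3, 1.30 for MT-ND4 and 1.29 for MT-ND5. They give 1.20 for MT-ND4L, 1.02 for MT-ND2 and 0.913 for MT-ND6. These are values of the model, and no read count is in the table to set beside them.

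The overlapping frames MT-ND4L and MT-ND4 were fitted as separate genes. The DMSO half-life of MT-ND4L was 1.42 times that of MT-ND4, and the STM2457 half-lives were 1.01 to 1. The log2 half-life ratios of the frames, -0.092 and 0.40, differed by 0.49. The synthesis rate of MT-ND4 per 1000 bases was 4.17 times that of MT-ND4L in DMSO and 3.37 times in STM2457. As deposited, the rate of MT-ND4 was 19.3 and 15.6 times that of MT-ND4L. In a 3′ library the reads of a bicistronic mRNA start at the end of MT-ND4, downstream of MT-ND4L, and where reads given to MT-ND4L come from was not tested. MT-ATP8 and MT-ATP6, another overlapping pair, differed more, by 3.78 in log2 ratio. MT-ATP8 had 3.86 and 3.61 h, while MT-ATP6 had 5.38 h under DMSO and reached the 69.3 h ceiling under STM2457.

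The annotated frames of MT-ND5 and MT-ND6 face each other across the 2 strands with abutting 3′ ends. Where the RNAs themselves end was not examined, and where the reads given to either gene come from was not tested. In DMSO the half-life of MT-ND6 was 2.50 times that of MT-ND5, and in STM2457 it was 0.982 times. Per 1000 bases the synthesis rate of MT-ND5 was 2.64 times that of MT-ND6 in DMSO and 1.99 times in STM2457. As deposited, it was 9.11 and 6.86 times that of MT-ND6. The half-lives of the pair were thus unequal in DMSO and almost equal in STM2457.

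The other 6 mitochondrial mRNAs encode subunits of complexes III, IV and V. Of these, 3 were longer-lived and 0 shorter-lived past 1.5-fold, beside 28.5% and 24.9% of all genes, and 1 of the 3, MT-ATP6, was at the ceiling in STM2457. MT-CYB, of complex III, had 2.57 h (DMSO) and 5.08 h (STM2457), and MT-CO1, the catalytic subunit of complex IV, had 4.76 and 7.52 h. MT-CO2 had 3.88 and 4.69 h and MT-CO3 had 4.64 and 5.01 h. Measured from the median of these 6, the median half-life ratio of the complex I mRNAs was -0.13 and not 0.34. That reference includes MT-ATP6 with its ceiling value. Without MT-ATP6 the middle log2 ratio is that of MT-CO2, 0.27, which lies below 0.34. The change of sign thus rests on counting a ceiling value in the reference.

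The genes nearest to the median profile of the 7 were sought over half-life and synthesis rate in both treatments, each on a log2 scale and divided by its SD over all genes. The rates entered as deposited, not per length, so the likeness holds on that scale only. The 5 nearest were XIST at a distance of 0.558, MT-ATP8 at 0.592, SRSF11 at 1.11, MT-CO2 at 1.12 and MT-CO1 at 1.14. SRSF11, a splicing factor of the SR family, had half-lives of 3.31 h (DMSO) and 5.81 h (STM2457). The members themselves lay between 0.522 (MT-ND1) and 3.90 (MT-ND6) from their own median, and all but MT-ND1 lay farther from it than these 5 genes. The likeness rests on 4 fitted values per gene.

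Complex I also needs nuclear-encoded subunits, and 34 of 37 listed were in the table. Their half-lives were far longer, with a median of 26.8 h (DMSO) and 45.3 h (STM2457), and the median log2 ratio was 0.070: 11 were called longer-lived, 6 shorter-lived, and 17 were within the rule, where 28.5% of all genes were longer-lived and 24.9% shorter. In synthesis, 20 of the 34 were past 1.5-fold higher and 0 lower, against 12.6% and 13.2% of all genes, with a median log2 ratio of 0.71 and a range of -0.29 to 2.24. All but NDUFA10 and NDUFS3 had a ratio above 0, which is 32 of 34. A half-life at the ceiling bears on the fitted rate, and 16 of the 34 were at the ceiling in either treatment. Among the 18 below it in both, 5 were longer-lived, 5 shorter-lived and 8 within the rule, with a median log2 half-life ratio of -0.037. In synthesis, 6 of these 18 were higher and 0 lower in synthesis, 16 had a ratio above 0, and the median was 0.38, where 8.75% of 7950 such genes in the table were higher and the median was -0.072. These lists, like the members, were compiled with earlier results of the same table known.

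Named by a fixed rule from those with both half-lives between 0.5 and 24 h, NDUFV2, a subunit of the NADH-binding module, had 13.2 h (DMSO) and 5.74 h (STM2457) (log2 ratio -1.20). NDUFA8, an accessory subunit of the intermembrane-space side, had 12.9 and 6.44 h (-0.999). NDUFV3 had 7.66 and 7.71 h (0.0083), and NDUFA5 had 20.2 and 21.9 h (0.12). The window leaves out every gene whose half-life passed 24 h in either treatment, so it cannot show the direction of the list.

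All 20 listed assembly factors of complex I were in the table: the rule called 7 longer-lived and 10 shorter-lived and left 3 within it, beside 28.5% and 24.9% of all genes, and the median log2 half-life ratio was -0.42. In synthesis, 7 were higher, 1 was lower and 12 were within 1.5-fold, beside 12.6% higher and 13.2% lower over all genes. NDUFAF7, a methyltransferase that modifies a core subunit, had 6.68 h (DMSO) and 1.18 h (STM2457) (-2.50), and DMAC1, a membrane-arm assembly factor, had 16.6 and 4.62 h (-1.84). NDUFAF4 had 2.88 and 7.08 h (1.30), and TMEM186, part of the MCIA assembly complex, had 1.69 and 6.62 h (1.97). The synthesis ratio of TMEM186 moved the other way, with a log2 ratio of -2.01.

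Of 12 genes listed for mitochondrial transcription and replication, 10 were in the table, and their half-lives had a median log2 ratio of 0.53, with 5 called longer-lived (28.5% of all genes), 1 called shorter-lived (24.9% of all genes) and 4 within the rule. POLRMT, the polymerase, had 6.50 h (DMSO) and 5.38 h (STM2457). TFAM, which packages mitochondrial DNA and activates its promoters, had 6.50 and 8.38 h (0.37). POLG, the DNA polymerase, had 2.80 and 3.03 h (0.11). The longest moves were those of MTERF3, at 2.35 and 9.41 h (2.00), and MTERF1, at 1.12 and 5.80 h (2.37), both of the termination-factor family. MTERF4 of the same family had a smaller log2 ratio (1.14) than TWNK (1.77). The log2 synthesis ratios of MTERF3 and MTERF1 moved the other way, at -0.55 and -1.03. In synthesis 1 of the 10 was higher and 1 lower past 1.5-fold, beside 12.6% and 13.2% of all genes.

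Of 20 symbols listed for mitochondrial RNA processing, tailing, stability and decay, 18 were in the table, and the rule called 6 of them longer-lived and 5 shorter-lived and left 7 within it, beside 28.5% and 24.9% of all genes, around a median log2 ratio of -0.078. Of the complex that cuts the 5′ ends of the transfer RNAs, TRMT10C had 1.58 h (DMSO) and 10.9 h (STM2457) (2.78), and KIAA0391, its nuclease subunit PRORP, had 3.58 and 1.65 h (-1.12). HSD17B10, the other subunit, named after its values were seen, had 13.7 and 23.0 h (0.75). ELAC2, the nuclease of the 3′ ends, had 12.3 and 6.08 h (-1.01), and PDE12, which removes poly(A) tails, had 2.71 and 12.4 h (2.19).

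Of the factors that protect, tail or degrade the mRNAs, LRPPRC had 6.23 and 4.84 h (-0.36) and MTPAP 2.90 and 2.60 h (-0.16). PNPT1 had 5.01 and 3.37 h (-0.57), just inside 1.5-fold, and SUPV3L1 had 5.60 and 9.38 h (0.74). SLIRP was at the ceiling in both treatments, with a log2 synthesis ratio of 2.03. METTL3 itself had 4.00 and 3.51 h (-0.19); STM2457 acts on its protein. These are mRNA values, and no protein level was measured.

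**Figure D4:**
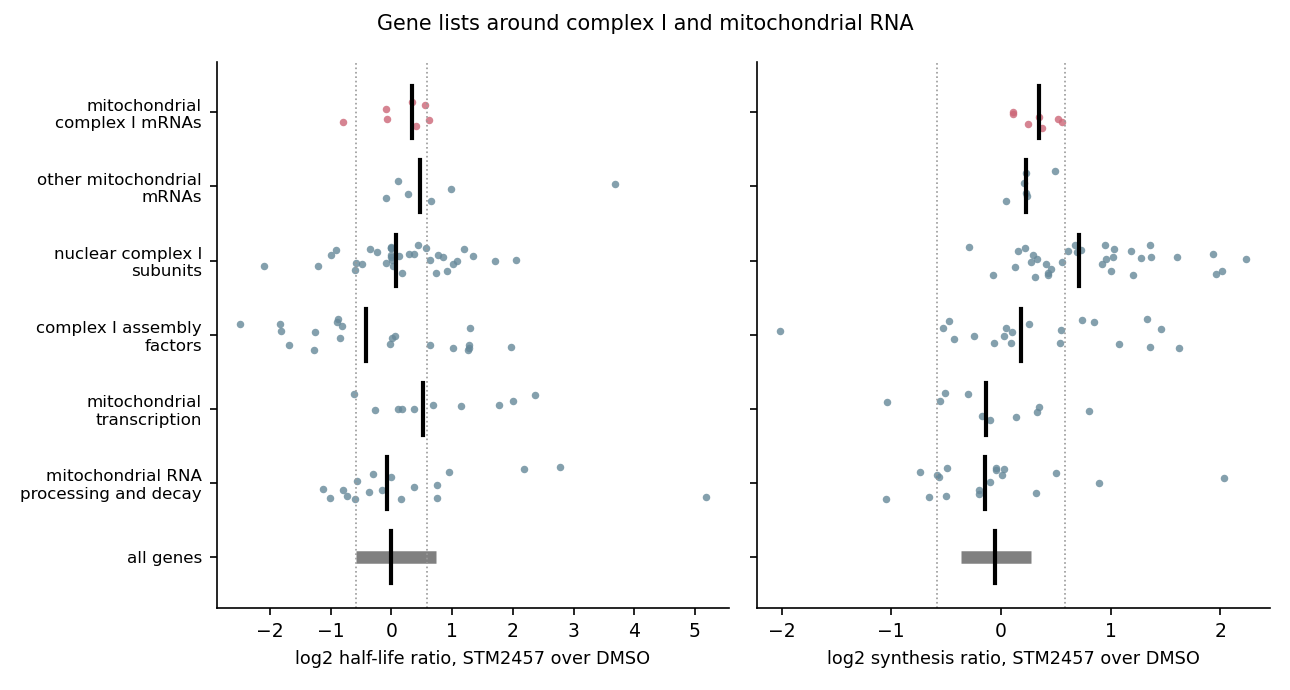
Log2 ratio of half-life (left) and of synthesis rate (right), STM2457 over DMSO, for each gene (point) of 6 lists, with the list median as a black bar and dotted lines at 1.5-fold; the bottom row shows the interquartile range (grey) and median of all genes. In synthesis the nuclear complex I subunits have a median of 0.71 and the mitochondrial complex I mRNAs 0.34, against -0.057 for all genes.

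The 7 mRNAs also differ in base composition, which sets how many sites can carry the label. Uridine made up 23.8% of MT-ND1, 25.7% of MT-ND2, 25.5% of MT-ND4 and 24.7% of MT-ND5. It made up 28.6% of MT-ND4L and 30.3% of MT-ND3, and 37.7% of MT-ND6. The median over the longest transcripts of 8514 nuclear protein-coding genes in the table was 25.4%, with 17.2% and 32.3% at the 5th and 95th percentiles, so MT-ND6 alone of the 7 lay outside that band. The same span of MT-ND6 read from the other strand holds 19.6% uridine. Guanine made up 35.6% of MT-ND6 and 9.50% to 12.1% of the other members. In the last 100 bases of the annotated frame, MT-ND6 held 39 uridines, MT-ND4L 21 and the others 27 to 30. The part of uridine content in the half-lives was not tested.

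The DRACH motif, in which m6A is commonly found (A, G or T, then A or G, then A, C, and A, C or T), was searched on the RNA strand only. MT-ND4 held 40 matches in 1378 bases and MT-ND5 held 50 in 1812, and 98.8% and 98.5% of nuclear transcripts had fewer in an end of the same length. MT-ND2 held 28 in 1042 bases, more than 94.8% of such ends. MT-ND1 held 21 in 956 bases and MT-ND3 7 in 346, where the medians of nuclear ends of equal length were 18 and 6. MT-ND4L held 4 in 297 bases, with a median of 5, and 99.6% of nuclear ends of that length had at least 1.

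MT-ND6 held 2 DRACH matches in 525 bases, where nuclear ends of equal length had a median of 9 and 0.518% had 2 or fewer. The form GGACT, which is itself a DRACH match, occurred 3 times each in MT-ND4 and MT-ND5 and not in the other members. Among nuclear ends as long as MT-ND4 and MT-ND5, 68.8% and 77.8% held it, as did 35.6% of those as long as MT-ND6. A match is a run of letters in the reference and says nothing of whether the RNA is methylated.

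**Figure D5:**
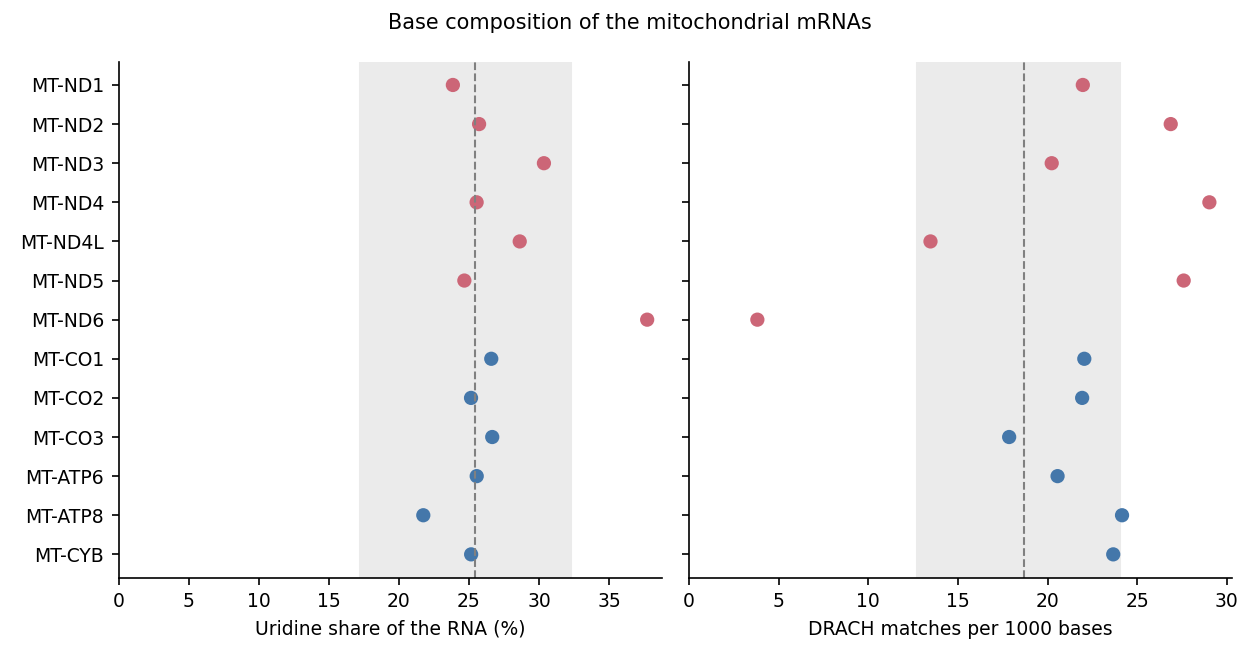
Share of uridine (left, percent) and DRACH matches per 1000 bases (right) in the 7 complex I mRNAs (red) and the other 6 mitochondrial mRNAs (blue), with the 5th to 95th percentile (grey band) and median (dashed line) of the longest transcripts of 8514 nuclear protein-coding genes. MT-ND6 lies outside both bands, with 37.7% uridine and 3.81 matches per 1000 bases. On the right, MT-ND2 (26.9), MT-ND4 (29.0), MT-ND5 (27.6) and MT-ATP8 (24.2) lie above the band.

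Nuclear copies of mitochondrial DNA can share reads with the members. Of the windows as long as a read (114 bases), 212 of 929 in MT-ND2 (22.8%) were also found letter for letter in MTND2P28, and 66 of 843 in MT-ND1 (7.83%) in MTND1P23, which is not in the table. No window of the other 5 members was found in any of the 215 such copies that GENCODE 29 names. The values of MT-ND2 and MT-ND1 are uncertain on this account, to an extent that was not tested. Only exact matches were sought, and sharing of reads that carry conversions or mismatches was not tested for any member. MTND4P12, for example, has no exact window in MT-ND4, yet the longest run they share is 71 bases. The longest run that MT-ND2 shares with MTND2P28, 266 bases, ends 776 bases before the 3′ end of MT-ND2. The places of the other shared windows were not examined.

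MTND2P28 (chromosome 1, 629640 to 630683, GRCh38, 98.4% identical to MT-ND2) was listed with 1.38 h (DMSO) and 3.10 h (STM2457), a log2 ratio of 1.17, where MT-ND2 had -0.078. Its deposited synthesis rate was 118 in DMSO, against 24621 for MT-ND2, a gene of nearly the same length. MTND4P12 (chromosome 5, 134926660 to 134928036, 95.8% identical to MT-ND4) had 6.21 and 9.98 h, a log2 ratio of 0.68 beside 0.40 for MT-ND4. MTND3P25 had 3.14 and 12.2 h (1.96), and MTND4P35 had 20.6 h in DMSO and was at the ceiling in STM2457. All 4 of these copies were past 1.5-fold longer-lived, as were 1 of the 7 members and 28.5% of all genes.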

How the data were processed

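Per the labels' protocols, RNA was alkylated with iodoacetamide and made into 3′ libraries that start from poly(A), read in 1 direction for 114 cycles. FastQC 0.11.9, STAR 2.7.8a and the build GRCh38.p12 are named, with no role stated, in the submitters' processing notes. The sources used here do not give the kinetic model, annotation, scaling or gene filter. The authors deposited half-lives, synthesis rates (a score with no stated unit) and their log2 ratios of STM2457 over DMSO, which equalled those recomputed here to within 1.27e-14. Hours are inferred from the size of the values, those of short-lived mRNAs among them. Half-lives stop at 69.3, which is ln 2 over 0.01, and that ceiling alone does not fix the unit.

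Log2 ratios, per-length rates, implied abundances, counts past 1.5-fold and medians were computed with Python 3.11.15, NumPy 2.4.6 and pandas 2.3.3 over 8996 genes (8993 in synthesis, since 3 had a rate of 0 in STM2457), after being tested on simulated data. Sequences came from GENCODE 29 and are the reference, not that of HEK293T; copies were aligned with Biopython 1.88. Named were the 13 mitochondrial mRNAs, mitochondrial rRNAs, tRNAs and nuclear copies, METTL3, 7 factors of mitochondrial RNA, the 2 highest and 2 lowest half-life ratios between 0.5 and 24 h in each list, and the 5 nearest profiles. The members and lists were chosen with earlier results of these data known. Alternatives changed the fold rule, centre, summary, members and range.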

Additional observations from a re-analysis of the deposited data

How the results depend on the processing

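The members' counts moved with the fold rule. At the smaller of the other fold rules tried 4 were longer-lived and 4 higher in synthesis, and at 2-fold 0 were longer-lived and 0 shorter-lived. Without MT-ND6, 0 were shorter-lived. Centred on the median of all genes, 1 was higher in synthesis (MT-ND4L, named after its value was seen). The shares of all genes past the other fold rules, or after centring, were not computed. These counts therefore cannot be set against a background. The median half-life log2 ratio of 0.34 became 0.13 as a mean, 0.34 centred on all genes, 0.37 without MT-ND6 and -0.13 centred on the other mitochondrial mRNAs. The median synthesis log2 ratio of 0.34 became 0.32 as a mean, 0.40 centred on all genes, 0.30 without MT-ND6 and 0.12 centred on the other mitochondrial mRNAs. The median abundance log2 ratio of 0.65 became 0.46 as a mean, 0.70 centred on all genes, 0.65 without MT-ND6 and -0.037 centred on the other mitochondrial mRNAs. Without MT-ND4L, an alternative chosen after seeing the data, the half-life and synthesis medians were 0.37 and 0.30. Both sign changes follow from the centre taken, and that centre includes MT-ATP6, at the ceiling in STM2457. Without MT-ATP6 the middle log2 ratios of the other mitochondrial mRNAs are those of MT-CO2, 0.27 in half-life and 0.50 in abundance. These lie below the members' 0.34 and 0.65, so neither sign would change. The share of all genes longer-lived, 28.5%, was 22.8% below the ceiling and 20.3% with both half-lives between 0.5 and 24 h, and the share shorter-lived, 24.9%, was 27.5% and 27.4%. The 5 nearest profiles were the same 5 genes on an unscaled distance. No paired analysis was possible because the table has no value per sample, so no replicate could be left out in turn. Depth is unknown, and no interval can be given.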

Other observations

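The table also lists 5 mitochondrial RNAs that are not mRNAs, although the libraries start from poly(A). The ribosomal RNA MT-RNR1 had 10.2 h (DMSO) and 12.3 h (STM2457) as half-lives, with a log2 synthesis ratio of 0.28. MT-RNR2, the larger ribosomal RNA, had 18.9 h in DMSO and was at the ceiling in STM2457, with a log2 synthesis ratio of 0.49. The transfer RNA MT-TF had 1.37 and 1.36 h, with a log2 synthesis ratio of 0.12. MT-TC had 4.77 and 1.56 h, with a log2 synthesis ratio of -1.63, and MT-TL1, whose gene lies between MT-RNR2 and MT-ND1, had 21.3 and 3.20 h, with -0.64. Both ribosomal RNAs and MT-TF thus had higher synthesis rates in STM2457, as the 13 mRNAs did, and MT-TC and MT-TL1 had lower ones.

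Of 11 nuclear copies of mitochondrial genes in the table, 7 were longer-lived, 1 was shorter-lived and 3 lay within 1.5-fold, beside 28.5% longer-lived and 24.9% shorter-lived over all genes. MTCO2P12 had 4.55 and 13.1 h. MTATP6P1 had 9.99 h and MTATP6P2 had 2.77 h in DMSO, and both were at the ceiling in STM2457, as MT-ATP6 was. Of the MT-RNR2-like copies, MTRNR2L11 had 22.1 and 11.6 h, MTRNR2L1 had 13.3 and 12.0 h, MTRNR2L12 had 32.1 and 25.4 h, and MTRNR2L10 was at the ceiling in both treatments.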
